A study of Mus musculus with 13 samples.

Results

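The levels of 10 genes of the acute-phase response and of neutrophil attraction were described in the inguinal fat of mice: Lcn2, Saa1, Saa2, Saa3, Orm1, Hp, Cxcl1, Cxcl2, S100a8 and S100a9. These genes were chosen by name from the gene table after an earlier look at the same libraries, so their levels and differences are given as a description without a test. All 10 were found in the table of 54532 genes, each under 1 identifier. Levels are in FPKM, fragments per kilobase of gene over a divisor for each library, and so are set per gene length. That divisor was not the library's own read total, as given below. Genes that reached 1 FPKM in 3 or more libraries were tested, which kept 14421 genes and 9 of the 10, and left out Cxcl2.

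The fat pad of the groin, inguinal white adipose tissue, was taken from individual mice after 12 h without food, and total RNA was sequenced. SF_HPD held 5 mice with fragmented sleep fed a high-protein diet, which gave 50% of its calories as protein, 12% as fat and 38% as carbohydrate. SF_ConD held 5 mice with fragmented sleep fed normal chow, and SC_ConD held 3 mice with normal sleep fed normal chow. Mice were allotted at random with weights matched. The sources used here give no strain, sex, age or length of the sleep protocol. There was no group with normal sleep on the high-protein diet, so the diet was compared only under fragmented sleep. The 3 comparisons asked what fragmented sleep did on chow, what the diet did under fragmented sleep, and what both did together against undisturbed sleep on chow.

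The acute-phase response is the rapid change in secreted proteins that follows infection or injury. Interleukin-6 acts on it through the transcription factor STAT3, and interleukin-1 and tumour necrosis factor act through NF-kappaB and C/EBP factors. The liver makes most acute-phase proteins of the blood, but fat cells and macrophages of adipose tissue also make several of them, among them haptoglobin, lipocalin-2, orosomucoid and serum amyloid A3. Chemokines such as those of Cxcl1 and Cxcl2 draw neutrophils out of the blood through the receptor CXCR2, and neutrophils carry S100A8 and S100A9 in their cytoplasm.

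Several libraries stood apart from the rest of their group in transcripts of other tissues. The serum albumin gene Alb, a liver gene, reached 4223 FPKM in SC_ConD 2, 1614 FPKM in SC_ConD 3, and no more than 88.3 FPKM in each of the other 11 libraries. Markers of B cells and lymph nodes summed to 687.5 to 1985 FPKM in 5 libraries, which are called lymphoid-rich below (SF_HPD 4 and 5, and SF_ConD 1, 4 and 5), and to 9.16 to 57.0 FPKM in the other 8. SF_HPD 2 had the lowest sum of adipocyte markers, 1502 FPKM, against 8588 FPKM or more elsewhere. It had the highest sum of epithelial markers, 10670 FPKM, against at most 2338 FPKM elsewhere, with Krt18 at 5015 FPKM. Not every epithelial marker was highest there. Cldn3 was at 0, and Epcam at 47.2 FPKM, against 177.6 FPKM in SF_ConD 3. Skeletal muscle markers summed to 18810 FPKM in SF_HPD 4 and to 2970 FPKM in SC_ConD 3, against at most 256 FPKM in the other 11. The adipocyte marker Adipoq was present in every library, at 26.1 FPKM in SF_HPD 2 and between 666 and 4231 FPKM in the other 12. Reads on genes, recovered from the FPKM values, ran from 14815592 to 18303302 per library. In bulk tissue, fewer cells of a type and less RNA per cell cannot be told apart.

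The serum amyloid A genes code for small apolipoproteins that circulate on high-density lipoprotein during the acute phase. In mice Saa1 and Saa2 are made chiefly by the liver and Saa3 by macrophages, adipocytes and epithelia. The 3 genes lie together within 42.3 kb of chromosome 7 on GRCm38. Saa3 (ENSMUSG00000040026) spans 46711998 to 46715700 on the minus strand, Saa1 (ENSMUSG00000074115) 46740497 to 46742980 on the minus strand, and Saa2 (ENSMUSG00000057465) 46751790 to 46754313 on the plus strand, so that Saa1 and Saa2 are transcribed away from each other. Of the 50-base windows of their transcripts, 13.2% of those of Saa1 were also found in Saa2, so the split of reads between these 2 genes is uncertain. The stretch from 250 to 51 bases before the RefSeq start (GRCm38.p6) is shown for the 3 genes because they had their highest levels in the same libraries. Capitals mark the C/EBP motif that was searched for, TTNNGCAA or its reverse TTGCNNAA.
Saa1: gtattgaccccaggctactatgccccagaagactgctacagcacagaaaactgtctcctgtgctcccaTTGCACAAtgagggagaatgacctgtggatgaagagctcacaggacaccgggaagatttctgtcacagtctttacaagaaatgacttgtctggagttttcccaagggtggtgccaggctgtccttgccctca
Saa2: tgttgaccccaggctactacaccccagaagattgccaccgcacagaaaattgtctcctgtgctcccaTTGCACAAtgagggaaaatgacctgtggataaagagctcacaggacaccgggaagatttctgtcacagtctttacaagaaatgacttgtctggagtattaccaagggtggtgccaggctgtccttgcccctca
Saa3: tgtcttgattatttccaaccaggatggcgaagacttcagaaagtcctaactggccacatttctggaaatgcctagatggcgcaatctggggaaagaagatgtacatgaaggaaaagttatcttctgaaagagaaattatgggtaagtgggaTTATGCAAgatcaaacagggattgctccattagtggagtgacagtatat

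These stretches are chr7:46743031-46743230 on the minus strand for Saa1, chr7:46751583-46751782 on the plus strand for Saa2 and chr7:46715727-46715926 on the minus strand for Saa3. Saa1 and Saa2 had the same base at 188 of 200 positions of an alignment with gaps, and the motif stood at almost the same place in both, from position -182 to -175 in Saa1 and from -183 to -176 in Saa2, where -1 is the base before the start. In Saa3 it stood from -99 to -92.

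Saa1 was at 0.586, 0, 1.46, 1.61 and 2.24 FPKM in SF_HPD 1 to 5, at 14.0, 22.01, 0.274, 6.51 and 0.140 FPKM in SF_ConD 1 to 5, and at 3.28, 682.5 and 228 FPKM in SC_ConD 1 to 3. The means were 1.18 ± 0.885 FPKM in SF_HPD (SD, n = 5), 8.585 ± 9.41 FPKM in SF_ConD (SD, n = 5) and 305 ± 346 FPKM in SC_ConD (SD, n = 3). All 5 SF_HPD libraries lay below all 3 SC_ConD libraries, but the lowest SC_ConD library, at 3.28 FPKM, was close to the highest SF_HPD library, at 2.24 FPKM. SF_ConD overlapped with both other groups and was split, with 3 libraries at 6.51 FPKM or more and 2 at 0.274 FPKM or less.

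Saa2 was at 0.465, 0, 1.79, 1.27 and 0.441 FPKM in SF_HPD 1 to 5, at 12.7, 30.3, 0.1245, 6.58 and 0.0691 FPKM in SF_ConD 1 to 5, and at 3.18, 772 and 244 FPKM in SC_ConD 1 to 3. Its order of libraries was close to that of Saa1 (Spearman rho 0.962 over 13 libraries). Saa3 was at 0.557, 0.177, 5.97, 0.756 and 0.271 FPKM in SF_HPD 1 to 5, at 6.16, 3.14, 0, 4.23 and 1.30 FPKM in SF_ConD 1 to 5, and at 0.3415, 218 and 71.1 FPKM in SC_ConD 1 to 3. SC_ConD 1 lay among the low libraries for Saa3, and all 3 groups overlapped. The list of 14 macrophage markers, led by Lyz2 and C1qa, summed to 385 to 2884 FPKM in SF_HPD, 126 to 5087 FPKM in SF_ConD and 261 to 1990 FPKM in SC_ConD, and its part in the levels of Saa3 was not tested. In SF_HPD 2 no read fell on Saa1 or Saa2, and 3 reads there would have given 0.140 FPKM of Saa1.

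Orm1 and Hp code for abundant plasma glycoproteins. Orosomucoid binds drugs and lipids and dampens inflammation, and haptoglobin binds free haemoglobin. Orm1 (ENSMUSG00000039196) lies on chromosome 4, 63344560 to 63348163, plus strand, and Hp (ENSMUSG00000031722) on chromosome 8, 109575128 to 109579172, minus strand. Orm1 was at 50.1, 9.39, 187, 34.7 and 114 FPKM in SF_HPD 1 to 5, at 170.2, 266, 30.75, 65.3 and 72.1 FPKM in SF_ConD 1 to 5, and at 106, 2906 and 985 FPKM in SC_ConD 1 to 3. SC_ConD 2 and 3 stood above every other library, and SC_ConD 1 lay inside the range of both sleep-fragmented groups. Of the 50-base windows of Orm1, 20.4% were also found in Orm2, so reads of these 2 genes may be exchanged.

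Hp was at 342, 13.7, 829.3, 62.5 and 477 FPKM in SF_HPD 1 to 5, at 1290, 2431, 450.0, 614 and 758.5 FPKM in SF_ConD 1 to 5, and at 287, 3725 and 1768 FPKM in SC_ConD 1 to 3. The means were 345 ± 332 FPKM in SF_HPD (SD, n = 5), 1109 ± 803 FPKM in SF_ConD (SD, n = 5) and 1926 ± 1725 FPKM in SC_ConD (SD, n = 3). Hp had the highest level of the 10 genes in each of the 13 libraries, and was, apart from S100a8 and S100a9, the least separated by SC_ConD 2 and 3, since SC_ConD 3 lay below SF_ConD 2. SF_HPD 2 and SF_HPD 4, the libraries with the lowest sums of adipocyte markers, had the lowest Hp.

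Lcn2 (ENSMUSG00000026822; chromosome 2, 32384633 to 32388252, minus strand) codes for lipocalin-2, which binds bacterial iron carriers and is secreted by neutrophils, epithelia and fat cells. It was at 8.34, 0.440, 56.3, 3.07 and 13.5 FPKM in SF_HPD 1 to 5, at 34.96, 59.7, 33.5, 38.5 and 21.8 FPKM in SF_ConD 1 to 5, and at 16.8, 398 and 335 FPKM in SC_ConD 1 to 3. The means were 16.3 ± 22.9 FPKM in SF_HPD (SD, n = 5), 37.7 ± 13.8 FPKM in SF_ConD (SD, n = 5) and 250 ± 204.5 FPKM in SC_ConD (SD, n = 3). SF_ConD was the group with the narrowest relative spread, and 4 of 5 SF_HPD libraries lay below all 5 SF_ConD libraries, with SF_HPD 3 near their top.

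Cxcl1 and Cxcl2 are neighbours on chromosome 5, within 14.7 kb. Cxcl1 (ENSMUSG00000029380) spans 90891241 to 90893115 and Cxcl2 (ENSMUSG00000058427) 90903871 to 90905938, both on the plus strand. Their products are among the chief neutrophil chemokines of the mouse. The stretch from 250 to 51 bases before the RefSeq start (GRCm38.p6) is shown for both because only these among the 8 promoters searched held the NF-kappaB consensus, marked in capitals, where a match on each strand overlaps the other.
Cxcl1: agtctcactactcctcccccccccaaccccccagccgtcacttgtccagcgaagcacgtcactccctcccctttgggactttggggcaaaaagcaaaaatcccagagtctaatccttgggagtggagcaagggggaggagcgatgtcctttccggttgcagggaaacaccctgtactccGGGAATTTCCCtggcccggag
Cxcl2: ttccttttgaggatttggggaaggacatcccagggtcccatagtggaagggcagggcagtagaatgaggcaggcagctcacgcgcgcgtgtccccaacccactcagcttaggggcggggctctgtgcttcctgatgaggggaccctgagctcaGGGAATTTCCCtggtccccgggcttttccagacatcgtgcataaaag

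They are chr5:90890995-90891194 for Cxcl1 and chr5:90903649-90903848 for Cxcl2, both on the plus strand. The capitals lie from position -71 to -61 in Cxcl1 and from -97 to -87 in Cxcl2. Cxcl1 was at 0.0749, 0, 0.679, 0.371 and 0.538 FPKM in SF_HPD 1 to 5, at 1.515, 1.501, 0.195, 0.8705 and 0.0928 FPKM in SF_ConD 1 to 5, and at 0.3165, 11.2 and 8.40 FPKM in SC_ConD 1 to 3. In reads this was 0 to 24 in SF_HPD, 2 to 43 in SF_ConD, and 10, 195 and 179 in SC_ConD 1 to 3. Only SC_ConD 2 and 3 stood out, and SC_ConD 1 lay within the range of both sleep-fragmented groups.

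Cxcl2 was at 0.0679, 0, 0.821, 0.140 and 0 FPKM in SF_HPD 1 to 5, at 0.128, 0, 0, 0.239 and 0 FPKM in SF_ConD 1 to 5, and at 0.0574, 1.82 and 1.70 FPKM in SC_ConD 1 to 3. It had at most 40 reads in any library. A count of 0 allowed up to 0.0758 to 0.168 FPKM in the 5 libraries without a read, taking 3 reads as the limit. The library with the most reads outside SC_ConD was SF_HPD 3, with 32, and the group ranges overlapped. This limit covers counting error only.

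S100a8 and S100a9 code for both subunits of calprotectin, a calcium- and zinc-binding protein of neutrophils and monocytes that attracts further neutrophils. S100a8 (ENSMUSG00000056054) spans 90668978 to 90670035 of chromosome 3 on the plus strand, and S100a9 (ENSMUSG00000056071) 90692632 to 90695721 on the minus strand. S100a8 was at 1.62, 0, 5.20, 27.9 and 65.1 FPKM in SF_HPD 1 to 5, at 32.0, 21.6, 3.765, 31.0 and 157 FPKM in SF_ConD 1 to 5, and at 2.91, 32.4 and 18.9 FPKM in SC_ConD 1 to 3. S100a9 was at 1.35, 1.55, 2.85, 48.3 and 91.2 FPKM in SF_HPD 1 to 5, at 39.7, 30.3, 10.4, 37.2 and 217.5 FPKM in SF_ConD 1 to 5, and at 4.66, 24.3 and 33.0 FPKM in SC_ConD 1 to 3.

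The calprotectin genes had another order of libraries than most of the other 8. SF_ConD 5, not SC_ConD 2, was their highest library, and their levels were close in rank to each other (Spearman rho 0.874 over 13 libraries) while S100a9 had a rho between -0.07 and 0.30 with each of the 8 members other than S100a8. The rho of S100a8 with those 8 ran from 0.102 with Cxcl2 to 0.516 with Hp. In the 5 lymphoid-rich libraries S100a9 lay between 37.2 and 217.5 FPKM, and in the other 8 between 1.35 and 33.0 FPKM. The share of all genes that part these libraries in this way was not counted. S100a8 lay between 27.9 and 157 FPKM in the lymphoid-rich libraries and between 0 and 32.4 FPKM in the others, and only SC_ConD 2 of the others lay above the lowest lymphoid-rich library. The lymphoid-rich libraries were defined by B cell markers after the data were seen, and the part of their cell content in these levels was not tested.

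**Figure D1:**
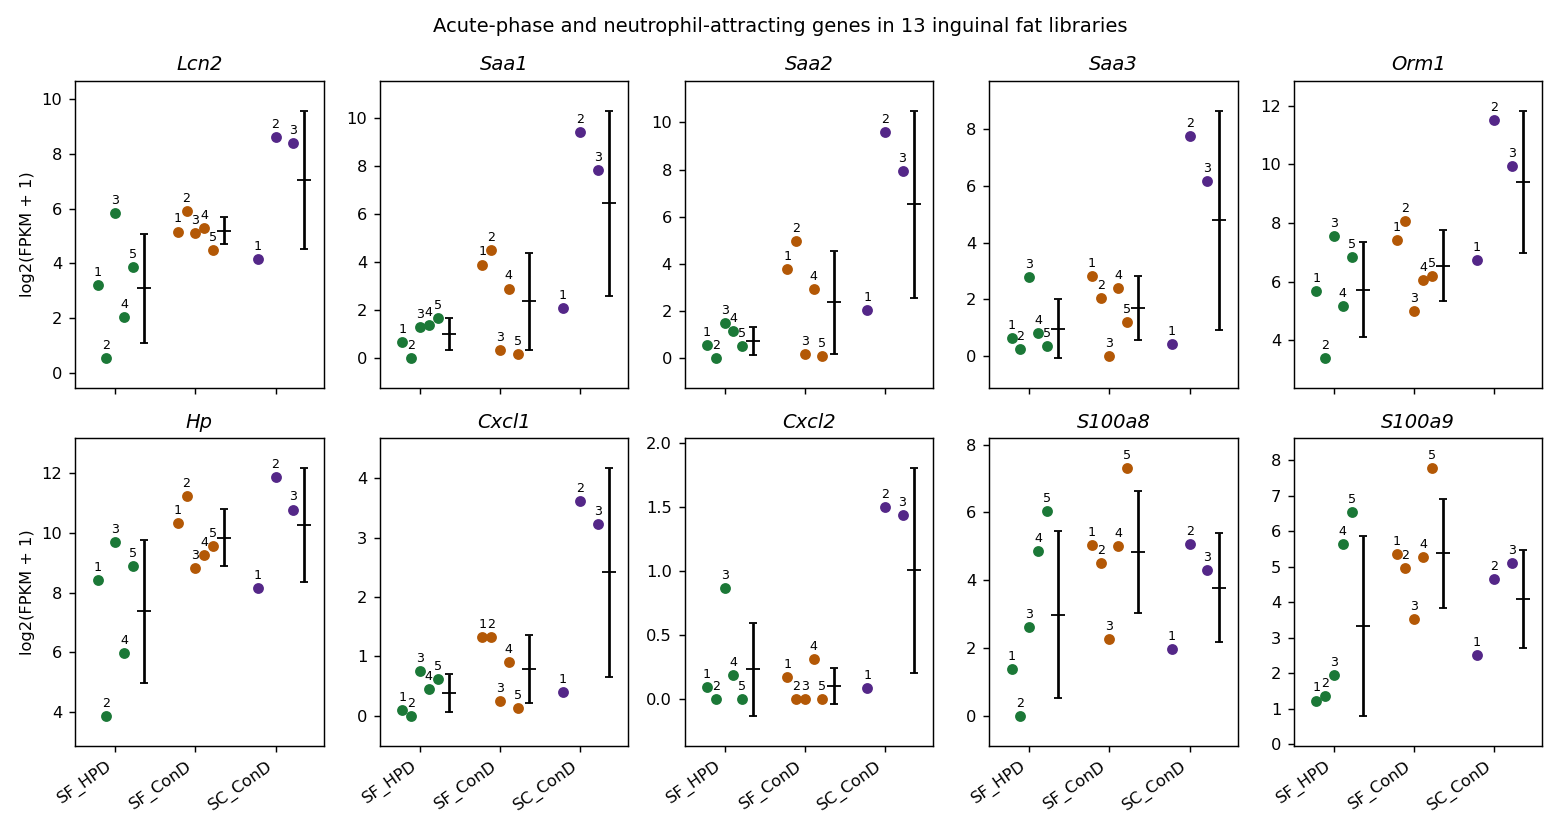
Levels of the 10 genes in 13 libraries, as log2(FPKM + 1), by group (SF_HPD, SF_ConD, SC_ConD); each point is 1 library with its replicate number, and the bars give the mean ± SD of the log2 values. SC_ConD 2 and 3 are the 2 highest libraries for 7 of the 10 genes, while SF_ConD 5 is highest for S100a8 and S100a9.

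By library and in FPKM, SC_ConD 2 was the highest for 8 of the 10 genes, with S100a8 and S100a9 as the exceptions. SC_ConD 3 was among the 2 highest for 7. The FPKM divisor was 0.585 times the own read total in SC_ConD 2, 0.754 times in SC_ConD 3 and 0.921 times in SF_ConD 2. A small divisor raises FPKM, and the smallest, 0.479, was that of SF_HPD 2. As a share of reads Hp was highest in SF_ConD 2 (58264 of 16198217), not in SC_ConD 2 (55565 of 15865457). SF_HPD 2 was the lowest, or tied for the lowest, for 8 of 10, with Saa3 and S100a9 as the exceptions. The group means in FPKM ran SF_HPD, SF_ConD, SC_ConD, low to high, for Lcn2, Saa1, Saa2, Saa3, Orm1, Hp and Cxcl1. For Cxcl2 they ran SF_ConD, SF_HPD, SC_ConD, and for S100a8 and S100a9 SC_ConD, SF_HPD, SF_ConD. Neighbours in these orders overlapped in every gene.

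The separation of SC_ConD 2 and 3 from the other 11 libraries differed between genes. The lower of these 2 libraries over the highest of the other 11 gave a ratio of 11.5 for Saa3, 10.4 for Saa1, 8.05 for Saa2, 5.61 for Lcn2, 5.54 for Cxcl1, 3.70 for Orm1 and 2.07 for Cxcl2. It was 0.727 for Hp, and 0.120 for S100a8 and 0.112 for S100a9. For Alb the same ratio was 18.3. The ratio of Cxcl2 rested on 40 reads in SC_ConD 3, with 35 in SC_ConD 2, against 32 reads in SF_HPD 3. The FPKM divisor was 0.754 times the own read total in SC_ConD 3 and 1.06 times in SF_HPD 3. The reads of Cxcl2 thus differed less than its ratio.

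Between SC_ConD 2 and SC_ConD 3 the level of Alb differed 2.62-fold. Over the same pair the serum amyloid and orosomucoid genes had ratios close to each other, 2.99 for Saa1, 3.16 for Saa2, 3.06 for Saa3 and 2.95 for Orm1. Hp had a ratio of 2.11, Lcn2 1.19, Cxcl1 1.33 and Cxcl2 1.07. Saa1 over Alb was 0.162 in SC_ConD 2 and 0.141 in SC_ConD 3, while in the other 11 libraries it ran between 0 and 0.249. The liver list, of which 21 of 22 genes were in the table, summed to 274 to 4345 FPKM in SF_HPD, 2812 to 6073 FPKM in SF_ConD and 2042 to 22690 FPKM in SC_ConD. Cyp2e1 and Alb led that list, and Cyp2e1 is expressed in fat as well. The part of liver transcripts in the levels of the 10 genes was not tested.

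Beside S100a8 and S100a9, the list of 22 neutrophil markers summed to 12.6 to 76.5 FPKM in SF_HPD, 24.5 to 108 FPKM in SF_ConD and 28.75 to 104 FPKM in SC_ConD. Its highest genes were Retnlg, which is also made in fat, and Prtn3. Ly6g, which defines mouse neutrophils, was at 0 in 9 libraries and under 1 FPKM in all 13. Mpo, the myeloperoxidase of neutrophil granules, was at 0 in 5 libraries and under 1 FPKM in all 13. Camp, the cathelicidin of neutrophil granules, was at 0 in 7 libraries and reached 25.6 FPKM in SF_ConD 5, the library with the most S100a8 and S100a9. Ly6g, at 0.831 FPKM, and the granule gene Ctsg, at 0.926 FPKM, were also highest in SF_ConD 5, both at low levels. Other granule genes of the list peaked elsewhere. Prtn3, at 35.6 FPKM, and Elane, at 8.315 FPKM, did so in SC_ConD 2, Ltf, at 21.5 FPKM, in SF_HPD 3, and Ngp, at 16.4 FPKM, in SF_HPD 4. Prtn3 and Elane were under 1 FPKM in 1 library each. Cxcr2, the receptor of Cxcl1 and Cxcl2, was at 0 to 2.40 FPKM in SF_HPD, 0.0686 to 4.465 FPKM in SF_ConD and 0 to 0.2725 FPKM in SC_ConD.

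**Figure D2:**
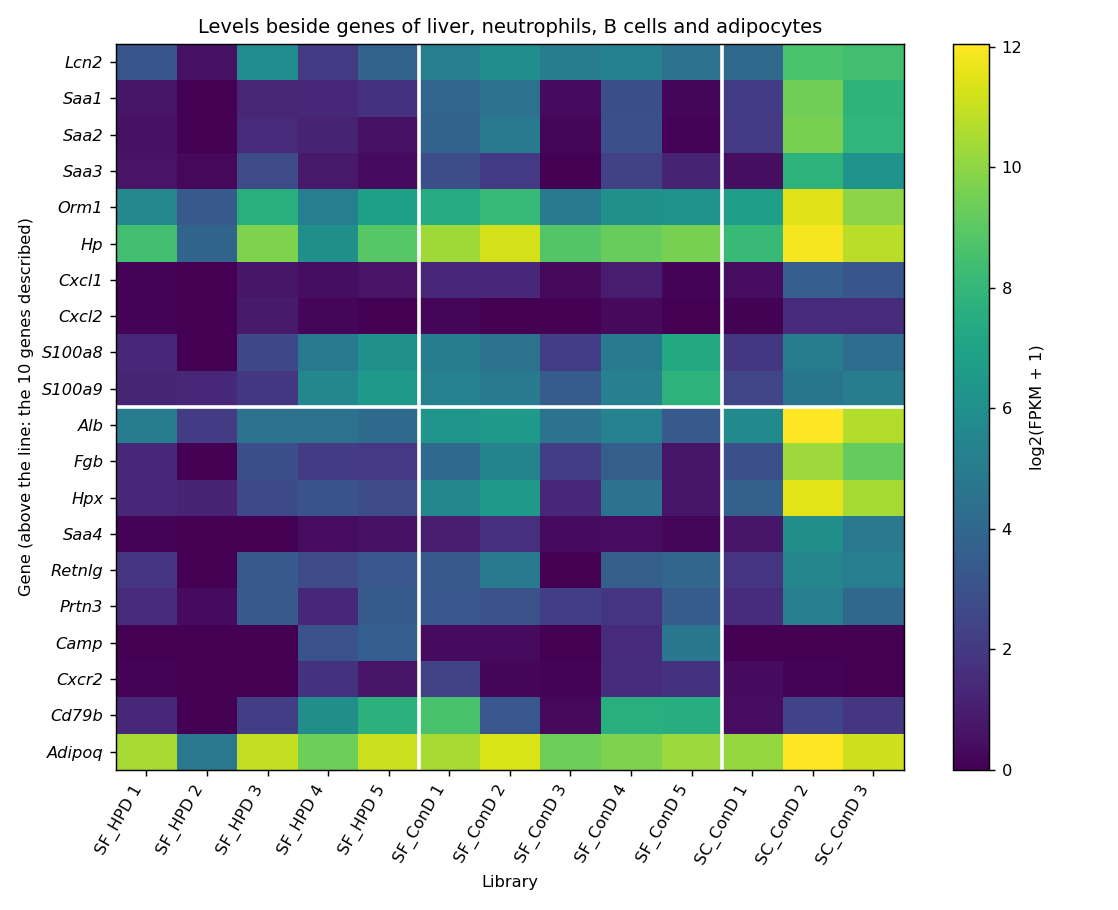
Levels as log2(FPKM + 1), by colour, of the 10 genes (above the white line) and of genes of liver, neutrophils, B cells and adipocytes (below it), in columns SF_HPD 1 to 5, SF_ConD 1 to 5 and SC_ConD 1 to 3. The liver genes Alb, Fgb and Hpx and the serum amyloid genes are brightest in SC_ConD 2 and 3. The B cell gene Cd79b and S100a9 are bright in SF_HPD 4 and 5 and SF_ConD 1, 4 and 5. S100a9 is nearly as bright in SF_ConD 2 and SC_ConD 2 and 3, at 24.3 to 33.0 FPKM, where Cd79b is at 2.77 to 8.615 FPKM.

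Fragmented sleep on chow against normal sleep on chow gave lower mean levels for 8 of the 10 genes and higher ones for S100a8 and S100a9. Log2 fold changes of FPKM + 1, which understate the change of low genes, are given with their SE from the fit to all genes. They were -4.15 (SE 1.46) for Saa2, -4.08 (SE 1.41) for Saa1, -3.09 (SE 1.28) for Saa3, -2.86 (SE 1.12) for Orm1, -1.86 (SE 1.12) for Lcn2 and -1.62 (SE 0.60) for Cxcl1. Hp, at -0.43 (SE 1.26), S100a8, at 1.04 (SE 1.33), and S100a9, at 1.29 (SE 1.28), differed by about their SE or less. The median over the 10 genes was -1.74, and over all 14421 genes it was -0.029.

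The negative differences rested on 2 of the 3 mice with normal sleep. Without SC_ConD 2 and 3, 9 of the 10 differences were positive and the median was 0.72, against 0.065 over all genes, with 1 SC_ConD mouse left, whose spread was taken from the other groups. Lcn2 then had a log2 fold change of 1.05, Saa3 of 1.27, Hp of 1.68, S100a8 of 2.85 and S100a9 of 2.87. Orm1 alone was negative, at -0.20. Of these, Lcn2, Hp and Orm1 differed by less than their SE. No gene of the 14421 passed limma at an adjusted p under 0.05 in this comparison, a share of 0.0%, and 828 had an unadjusted p under 0.05; limma-voom on the recovered reads also passed 0, with 709 at an unadjusted p under 0.05. None of the 9 genes kept had libraries without overlap, where 1.92% of all genes were lower and 1.68% were higher without overlap. Of the 9 genes, 6 were at least 2-fold lower, against 4.31% of all genes, and 4 (Orm1, Saa1, Saa2 and Saa3) at least 4-fold lower, against 1.18%.

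Without SC_ConD 1 the direction was steeper. Limma then called 194 genes, 5 higher and 189 lower in SF_ConD, a share of 1.31% lower, and 4 of the 9 genes were among the lower ones: Cxcl1, Saa1, Saa2 and Saa3. The genes were chosen with these libraries in view, so nothing is read from these counts. Without the lymphoid-rich libraries, 9 of the 10 differences were negative, and S100a8 moved to -0.41.

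Fragmented sleep with the high-protein diet against normal sleep on chow gave lower means of log2(FPKM + 1) for all 10 genes. In FPKM the means of S100a8 and S100a9 were higher in SF_HPD, at 20.0 and 29.05 FPKM, than in SC_ConD, at 18.1 and 20.7 FPKM. The log2 fold changes were -5.79 (SE 1.46) for Saa2, -5.44 (SE 1.41) for Saa1, -3.97 (SE 1.12) for Lcn2, -3.82 (SE 1.28) for Saa3, -3.68 (SE 1.12) for Orm1, -2.90 (SE 1.26) for Hp and -2.03 (SE 0.60) for Cxcl1. S100a8, at -0.80 (SE 1.33), and S100a9, at -0.75 (SE 1.28), differed by less than their SE. The median over the 10 genes was -3.29, against 0.016 over all genes.

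Limma called 0 of 14421 genes here as well, a share of 0.0%, with 531 at an unadjusted p under 0.05, and limma-voom called 0, with 500 at that level. Saa1 and Saa2 were the 2 of 9 genes whose libraries did not overlap, both lower in SF_HPD, where 0.853% of all genes were lower and 0.791% higher without overlap. All 7 genes that were at least 2-fold lower, against 4.15% of all genes, were also at least 4-fold lower, against 1.26%. Without SC_ConD 2 and 3, with 1 SC_ConD mouse left, the median was -0.40 and 6 of the 10 differences were negative. Saa1 was at -1.09, Saa2 at -1.32 and Cxcl1 at -0.01. The positive ones were S100a8, at 1.02, S100a9, at 0.83, Saa3, at 0.54, and Cxcl2, at 0.15. Each of the 9 genes kept then differed by less than its SE. Without SC_ConD 1 limma called 196 genes, 3 higher and 193 lower in SF_HPD, a share of 1.34% lower, among them 6 of the 9 genes: Cxcl1, Lcn2, Orm1, Saa1, Saa2 and Saa3. Without the lymphoid-rich libraries, which left 3 libraries in each group, S100a8 was at -2.44 (SE 1.03) and S100a9 at -2.58 (SE 0.73). This comparison and the one before it share the SC_ConD mice.

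The high-protein diet against chow, both under fragmented sleep, used none of the SC_ConD mice in its means. Mean levels were lower in SF_HPD for 9 of the 10 genes, with Cxcl2, at 0.13 on the log2 scale, as the exception. The log2 fold changes were -2.47 (SE 1.09) for Hp, -2.11 (SE 0.97) for Lcn2, -2.04 (SE 1.11) for S100a9, -1.84 (SE 1.15) for S100a8, -1.64 (SE 1.27) for Saa2 and -1.37 (SE 1.22) for Saa1. Orm1, at -0.82 (SE 0.97), Saa3, at -0.73 (SE 1.11), and Cxcl1, at -0.40 (SE 0.52), differed by less than their SE. Cxcl1 was at -1.02 with a pseudocount of 0.1 and at -1.53 by limma-voom. The median over the 10 genes was -1.50, against 0.014 over all genes.

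Each of the 9 genes kept overlapped between SF_HPD and SF_ConD, where 0.229% of all genes were lower and 0.229% higher without overlap. Limma called 0 of 14421 genes, a share of 0.0%, with 273 at an unadjusted p under 0.05, and limma-voom called 0, with 205 at that level. Of the 9 genes, 6 were at least 2-fold lower, against 3.02% of all genes, and Hp, Lcn2 and S100a9 at least 4-fold lower, against 0.284%. SF_HPD 2, with its low sum of adipocyte markers, carried part of this: without it Hp moved to -1.59, Lcn2 to -1.47, Orm1 to -0.23 and S100a8 to -1.09, and the median of the 10 genes to -1.10. Single SF_ConD libraries moved others: without SF_ConD 2, Saa1 was at -0.83, Saa2 at -0.99 and Orm1 at -0.44, and without SF_ConD 5, S100a8 was at -1.22. Without SF_HPD 2 and SF_HPD 4, Hp was at -0.84, Lcn2 at -0.90 and Orm1 at 0.15, with a median of -0.87 and 8 of 10 differences negative. Without the lymphoid-rich libraries, which left 3 SF_HPD and 2 SF_ConD libraries, 8 of 10 were negative with a median of -1.84. Saa3 was then at 0.20, S100a8 at -2.04 (SE 1.15) and S100a9 at -2.73 (SE 0.82).

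**Figure D3:**
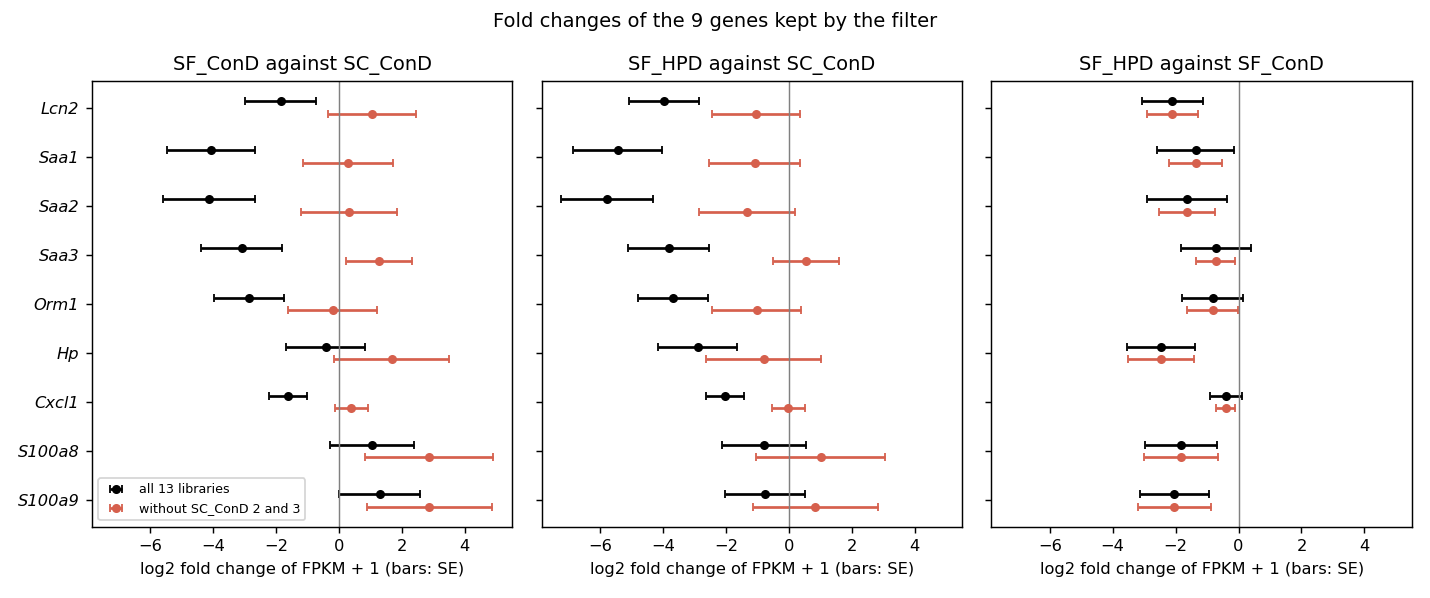
Log2 fold changes of FPKM + 1 with their SE for the 9 genes kept, in the 3 comparisons, from all 13 libraries (black) and without SC_ConD 2 and 3 (red). For SF_ConD against SC_ConD the serum amyloid genes, Lcn2 and Cxcl1 lie above 0 when these 2 libraries are left out, with Lcn2 at 1.05. For SF_HPD against SC_ConD, Lcn2, Saa1, Saa2 and Orm1 then lie at -1.02 to -1.32, each less than its SE. The comparison of SF_HPD with SF_ConD keeps its values and changes only in its SE.

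Levels were also set against Adipoq, the adipocyte hormone gene, within each library; this ratio was chosen after the values were seen. Hp over Adipoq was 0.238, 0.524, 0.417, 0.0929 and 0.219 in SF_HPD 1 to 5, 0.913, 0.922, 0.6755, 0.7345 and 0.628 in SF_ConD 1 to 5, and 0.252, 0.880 and 0.795 in SC_ConD 1 to 3. Every SF_HPD library lay below every SF_ConD library, SF_HPD 2 included, and SC_ConD 1 lay within SF_HPD. This separation depended on the gene used as divisor. The adipocyte gene Cidec was at 32.1 FPKM in SF_HPD 2 and at 1283 FPKM in SF_ConD 3. Hp over Cidec was thus higher in SF_HPD 2 than in SF_ConD 3. Hp was the 1 gene of the 9 whose ratio to Adipoq did not overlap between SF_HPD and SF_ConD, against 0.104% of all genes with a lower ratio to Adipoq in SF_HPD without overlap. Against SC_ConD, Saa1 and Saa2 did not overlap with SF_HPD, against 0.305% of all genes, and none of the 9 did so with SF_ConD, against 0.423%.

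Lcn2 over Adipoq was 0.00580, 0.0169, 0.0283, 0.00457 and 0.00619 in SF_HPD 1 to 5, 0.02475, 0.0227, 0.0503, 0.0461 and 0.0180 in SF_ConD 1 to 5, and 0.0148, 0.0941 and 0.151 in SC_ConD 1 to 3. SF_HPD 3 alone lay inside the SF_ConD range. Orm1 over Adipoq was 0.0349 to 0.360 in SF_HPD, 0.0462 to 0.1205 in SF_ConD and 0.0936 to 0.687 in SC_ConD, with SF_HPD 2 at the top of its group, and did not separate SF_HPD from SF_ConD.

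**Figure D4:**
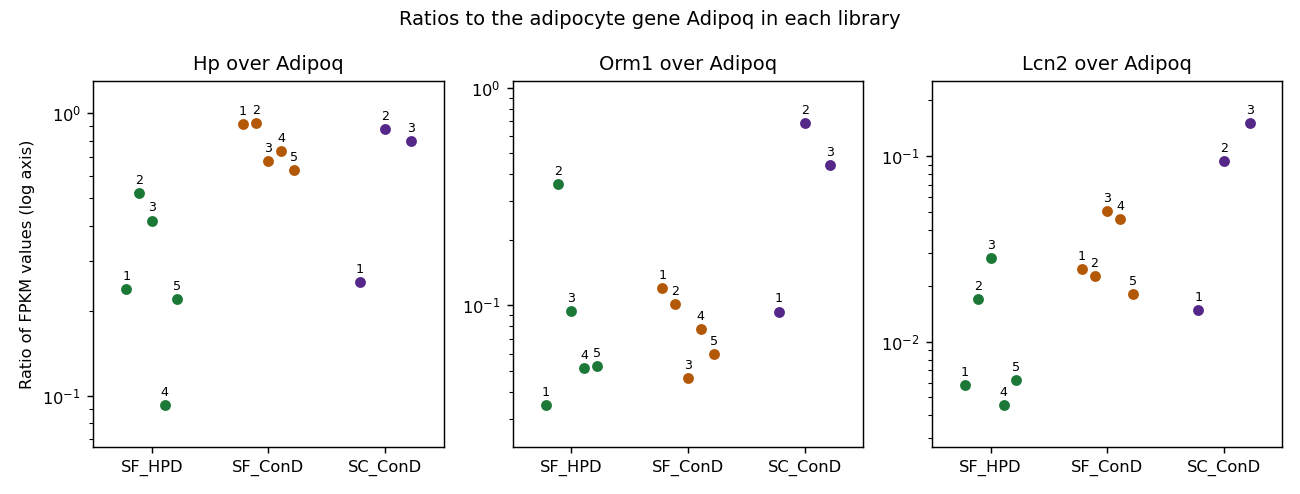
Ratio of the FPKM of Hp, Orm1 and Lcn2 to that of Adipoq on log axes, by group (SF_HPD, SF_ConD, SC_ConD); each point is 1 library with its replicate number. Hp over Adipoq runs from 0.0929 to 0.524 in SF_HPD and from 0.628 to 0.922 in SF_ConD, while the other 2 ratios overlap.

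Most other genes of the acute-phase response also had lower mean levels in both sleep-fragmented groups than in SC_ConD. Of 28 listed genes, among them Saa4, fibrinogens, hemopexin and C-reactive protein, 26 were kept and 0 passed in any comparison. In SF_ConD against SC_ConD, 24 of 26 had negative fold changes, 18 with an unadjusted p under 0.05, and their median was -2.65, against -0.029 over all genes, and 0.21 without SC_ConD 2 and 3. Saa4, a constitutive serum amyloid of the liver, had the smallest p, with 0.758 ± 0.843 FPKM in SF_ConD (SD, n = 5) and 29.6 ± 30.4 FPKM in SC_ConD (SD, n = 3) and a log2 fold change of -3.14 (SE 0.85; limma adjusted p = 0.716), which was -0.05 without SC_ConD 2 and 3. In SF_HPD against SC_ConD, 24 of 26 were negative, with a median of -3.06, or -0.73 without SC_ConD 2 and 3.

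Cp, the copper carrier ceruloplasmin, had the smallest p in SF_HPD against SC_ConD, with 6.245 ± 4.98 FPKM in SF_HPD (SD, n = 5) and 48.3 ± 30.9 FPKM in SC_ConD (SD, n = 3) and a log2 fold change of -2.94 (SE 0.66; limma adjusted p = 0.394), which was -1.79 without SC_ConD 2 and 3. Its level in SC_ConD 1, 17.9 FPKM, was also above all 5 SF_HPD libraries. In SF_HPD against SF_ConD, 21 of 26 were negative with a median of -0.74, against 0.014 over all genes, and 1 had an unadjusted p under 0.05. That gene was C3, the central complement protein, which fat cells also make. C3 had 158 ± 101 FPKM in SF_HPD (SD, n = 5) and 371 ± 89.4 FPKM in SF_ConD (SD, n = 5), a log2 fold change of -1.69 (SE 0.71; limma adjusted p = 1.0), which was -1.01 without SF_HPD 2.

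Of 38 genes of the signalling that drives the response, 32 were kept, and Il6, Il17a, Il22, Lif, Il1rap and Il22ra1 were not. Il6, the main inducer of the response, was at 0 in 7 of 13 libraries and at most 0.459 FPKM, in SF_HPD 3. None passed in any comparison, and the medians were 0.24 in SF_ConD against SC_ConD, -0.09 in SF_HPD against SC_ConD and -0.31 in SF_HPD against SF_ConD. Il1r1, the interleukin-1 receptor, was at 3.61 ± 1.51 FPKM in SF_HPD (SD, n = 5), 2.78 ± 0.739 FPKM in SF_ConD (SD, n = 5) and 15.7 ± 12.0 FPKM in SC_ConD (SD, n = 3). In SC_ConD 2 and 3 it was at 27.6 and 15.95 FPKM, and in no other library above 4.99 FPKM. Its log2 fold change was -1.82 (SE 0.51; limma adjusted p = 0.716) in SF_ConD and -1.59 (SE 0.51; limma adjusted p = 0.686) in SF_HPD, each against SC_ConD, and -0.325 and -0.10 in the same order without SC_ConD 2 and 3. Bcl3, a co-regulator of NF-kappaB, had 3.04 ± 2.23 FPKM in SF_HPD (SD, n = 5) and 7.91 ± 4.64 FPKM in SF_ConD (SD, n = 5), a log2 fold change of -1.15 (SE 0.41; limma adjusted p = 1.0).

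Of 20 listed receptors of the 10 gene products and their co-receptors, 17 were kept and 0 passed. Their medians were 0.05 in SF_ConD against SC_ConD, -0.06 in SF_HPD against SC_ConD and -0.15 in SF_HPD against SF_ConD. Fpr2, the formyl peptide receptor that also binds serum amyloid A, had 0.844 ± 0.480 FPKM in SF_ConD (SD, n = 5) and 0.122 ± 0.2115 FPKM in SC_ConD (SD, n = 3), a log2 fold change of 0.69 (SE 0.31; limma adjusted p = 0.861), which was 0.39 without SC_ConD 2 and 3 and 2.28 with a pseudocount of 0.1. Cd163, the macrophage receptor for haptoglobin with haemoglobin, had 5.88 ± 6.01 FPKM in SF_HPD (SD, n = 5) and 2.235 ± 1.30 FPKM in SF_ConD (SD, n = 5), a log2 fold change of 0.78 (SE 0.495; limma adjusted p = 1.0). It was 0.35 without SF_HPD 1, which had 16.2 FPKM, and 1.165 without SF_HPD 2. Cd14, a co-receptor of the Toll-like receptor that S100A8 and S100A9 bind, had 25.05 ± 13.8 FPKM in SF_HPD (SD, n = 5) and 57.4 ± 31.15 FPKM in SC_ConD (SD, n = 3), a log2 fold change of -1.24 (SE 0.62; limma adjusted p = 1.0), which was -0.77 without SF_HPD 4 and -0.13 without SC_ConD 2 and 3.

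Of 17 other genes tied to neutrophil attraction, 10 were kept. Not all of the 17 code for attractants, since C5ar1 and Ltb4r1 are receptor genes and Alox5, Alox5ap and Lta4h serve leukotriene synthesis. The colony-stimulating factors Csf2 and Csf3 and the chemokines Cxcl3 and Cxcl5 were among those left out. None passed, and the medians were -0.13 in SF_ConD against SC_ConD, -0.04 in SF_HPD against SC_ConD and 0.15 in SF_HPD against SF_ConD. Ccl4 was listed at 0 in the 3 SC_ConD libraries, and was at 1.15 ± 1.085 FPKM in SF_HPD (SD, n = 5) and 1.71 ± 1.62 FPKM in SF_ConD (SD, n = 5), with limma adjusted p = 1.0 and 0.861 against SC_ConD. Cxcl15, a chemokine best known from mouse lung epithelium, had 3.27 ± 2.97 FPKM in SF_HPD (SD, n = 5) and 10.4 ± 4.73 FPKM in SF_ConD (SD, n = 5), a log2 fold change of -1.68 (SE 0.66; limma adjusted p = 1.0).

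The genes most like each of the 9 in rank over the 13 libraries were taken from 9871 others averaging 2 FPKM or more, as a description, since these libraries share their depth and tissue content. Those nearest to Saa1 were Hpx (rho 0.989), Serpina3k (0.978) and Itih4 (0.978), and those nearest to Saa2 were Gc (0.984), Ahsg (0.978) and Itih4 (0.973), all of them genes of plasma proteins made by the liver. Cxcl1 ranked nearest to the major urinary protein gene Mup3 (0.978), Nat8f2 (0.968) and Serpina3k (0.956). Saa3 was nearest to Cd209a (0.956), a lectin of dendritic cells and macrophages, Hao1 (0.93) and Clec4a3 (0.929).

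Orm1 was nearest to Mogat1 (0.967), Kcns3 (0.967) and Lcat (0.966), Hp to Smkr-ps (0.956), Sult1a1 (0.94) and Ttc39c (0.94), and Lcn2 to Cd164l2 (0.934), Hpn (0.923) and Slc31a1 (0.907). S100a8 was nearest to the T cell receptor gene Trbc2 (0.923), Nkg7 (0.912) and Rhoh (0.912), and S100a9 to the T cell adaptor gene Lat (0.934), Nkg7 (0.929), a gene of cytotoxic lymphocytes, and Slc36a3os (0.91). Among the 9 themselves, rho was 0.929 between Saa1 and Cxcl1 and 0.923 between Lcn2 and Hp.

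RefSeq promoters were at hand for 8 of the 10 genes, without Orm1 and Hp. In the 250 bases before the start, on both strands, 5 of 8 (Lcn2, Saa1, Saa2, Saa3 and S100a9) held the C/EBP motif, which 9.56% of 32851 promoters held. The NF-kappaB consensus was found in 2 of 8, Cxcl1 and Cxcl2, and in 3.9% of all promoters. The STAT3 inverted repeat TTCNNNGAA was found in 0 of 8 and in 7.02% of all promoters. A match says only that these letters are in the window. The windows were set from the RefSeq start. That of Lcn2, 32387740 to 32387989, lay wholly inside the gene span given above. Those of S100a8, Saa2, Saa3, Cxcl1 and Cxcl2 reached into their gene spans in part.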

How the data were processed

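The 13 libraries were each from 1 mouse, per the labels, and were grouped by their titles. The authors deposited 1 table of FPKM values per gene. The submitters' processing notes name HISAT2 2.0.5, featureCounts 1.5.0-p3, CASAVA and the build mm8, without a role. Coordinates in the table were the same as those of GENCODE M21 on GRCm38 for 53499 of 54532 genes and for all 10 described here, so GRCm38 is named. The sources used here do not give the strand setting. FPKM times gene length gave whole reads, within 0.05, for at least 99.99% of values of each library. The divisor in the FPKM was 0.479 to 1.23 times the library's own total of such reads. FPKM levels between libraries thus do not rest on depth alone. With own totals instead, the median log2 fold change of the 9 genes was -1.58 in SF_ConD and -3.43 in SF_HPD, each against SC_ConD. It was -1.57 in SF_HPD against SF_ConD. The main fit gave -1.86, -3.68 and -1.64 in the same order. Own totals were tried after the data were seen. The gene lengths exceed the coding transcripts for most of the 10 genes (2478 bases against 609 for Saa1), which lowers FPKM levels between genes but not ratios within one.

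Limma 3.58.1 in R 4.3.3 was run on log2(FPKM + 1) over all 13 libraries with group means, trend and robust eBayes, two-sided p-values adjusted by Benjamini-Hochberg over 14421 genes, and a threshold of 0.05. The steps were tested on simulated data with 200 changed genes. Those data had the same dispersion for every gene and no differences in tissue content between libraries. They therefore say little about how many changed genes could be called in the real libraries. The 10 genes, the lists and the rule for naming genes were chosen with earlier results of these data known. Named beside the 10 genes were, from each list and comparison, the gene with the smallest p, the 2 highest genes of the liver, neutrophil and macrophage marker lists, and the 3 genes nearest in rank. Genes outside this rule (Adipoq, Ly6g, Mpo, Camp, Elane, Ltf, Ngp, Cxcr2, Il6 and the lower rows of the heat map) were chosen after their values were seen. So were Krt18, Cldn3, Epcam, Ctsg and Cidec. Alternatives were another pseudocount, filters, scalings, tests and libraries left out.

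The labels number the replicates. Deviations of same-numbered libraries from their group means correlated at 0.711, 0.333 and 0.191 between SF_HPD and SC_ConD, each over 0.1, and at -0.67 to 0.405 in the other comparisons. The labels name no source of a pairing, and the fold changes, SE and calls in the text come from the fit without pairs; a fit with the replicate number as a block was an alternative. No 2 libraries differed by as little as sampling noise. Python 3.11.15 with Biopython 1.88 searched the promoters.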

Additional observations from a re-analysis of the deposited data

Results flagged for a closer look

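Of 58 groups of 5 libraries examined for a single library far from the others, 3 held one, where chance gives about 1 in 20. Saa3 in SF_HPD was at 5.97 FPKM in SF_HPD 3, against 0.177 to 0.756 FPKM in the other 4, a gap of 0.775 of the group's range. Cxcl2 in SF_HPD was at 0.821 FPKM in SF_HPD 3, on 32 reads, against 0 to 0.140 FPKM in the other 4, a gap of 0.781 of the range. The sum of skeletal muscle markers in SF_HPD was 18810 FPKM in SF_HPD 4, against 29.6 to 169 FPKM in the other 4, a gap of 0.733 of the range.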

How the results depend on the processing

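No gene passed in the 3 comparisons under the other pseudocount, filters, scalings, eBayes options, fits of 2 groups, limma-voom, or without the lymphoid-rich libraries. The median-of-ratios scaling could change little, since its factors were 0.988 to 1.075. Leaving out 1 library at a time gave 0 to 194 genes in SF_ConD against SC_ConD, 0 to 196 in SF_HPD against SC_ConD and 0 to 1 in SF_HPD against SF_ConD. The genes of the 4 lists passing ran from 0 to 14, 0 to 17 and 0 in the same order, and the highest values came without SC_ConD 1. The 1 gene called without SF_HPD 5, the gene model Gm22478, was higher in SF_HPD. With the replicate block, 0 genes passed in each comparison, with 499, 417 and 342 in the same order at an unadjusted p under 0.05, so it changed no call; in SF_ConD against SC_ConD it moved S100a9 to -0.01 and S100a8 to -0.23. Apart from the loss of SC_ConD 2 and 3, directions against SC_ConD turned for Hp without SC_ConD 2 (0.37) and for S100a8 and S100a9 with the replicate block, S100a8 also without the lymphoid-rich libraries, each in SF_ConD; the cause was not tested. TPM moved the median of all genes to 0.151 in SF_ConD and 0.248 in SF_HPD, each against SC_ConD, and the signs of the 9 genes stayed as in the text. Count models by quasi-likelihood and by negative binomial Wald tests were not run, since the table holds FPKM; limma-voom and leaving out SF_HPD 2 and 4 were chosen after seeing the data. Depth limits Cxcl2, with 0 to 40 reads.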
